A study of Mus musculus with 6 samples.

Results

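The muscle miRNAs miR-1, miR-133 and miR-206 were examined in left ventricle of mice given sunitinib, a tyrosine kinase inhibitor used against cancer. Of 1881 mouse miRNAs on the arrays, 7 carry the names chosen: mmu-miR-1a-3p, mmu-miR-1a-1-5p, mmu-miR-1a-2-5p, mmu-miR-133a-3p, mmu-miR-133a-5p, mmu-miR-133b-3p and mmu-miR-206-3p, where mmu marks the mouse and is dropped from here on. Spots of the scanner files and rows of the deposited value table were taken by exact name, and all 7 were present in each. The samples were left ventricles of male C57BL/6 mice, 3 labelled control, which the series' design text describes as given vehicle, and 3 labelled sunitinib. The sources used here do not give dose, route, duration or age. Each sample, 200 ng of total RNA, was labelled with Cy3 and hybridised alone to a 1-colour Agilent miRNA array. Nothing in the labels ties each sample to a separate animal, and the p-values therefore measure how these samples spread, which may be technical.

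miRNAs are short RNAs that pair with messenger RNAs through a seed near their 5′ end and repress them. miR-1 and miR-133 are made in heart and skeletal muscle from shared primary transcripts. miR-1 promotes the differentiation of muscle cells, and miR-133 restrains growth and keeps smooth muscle genes low in cardiomyocytes. miR-206, which has the same seed as miR-1, and miR-133b, which differs from miR-133a only near its 3′ end, come from another primary transcript that is best known in skeletal muscle. The 3p arm is the strand that is mainly kept for miR-1 and miR-133, and the 5p arm is the partner strand of the same hairpin.

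The RefSeq (GRCm38.p6) sequences used here included the mature form of 3 of the 7 members, all printed below. What the arrays detected differed widely among these 3. Capitals mark the seed, bases 2 to 8 of the miRNA, written 5′ to 3′.
miR-133b-3p: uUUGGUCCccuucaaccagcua
miR-206-3p: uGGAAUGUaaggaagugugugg
miR-1a-1-5p: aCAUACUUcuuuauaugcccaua

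The 3 seeds differ from each other. The array's probes for these miRNAs, shown as DNA, were exact complements of the 3′ part of the RNA, and capitals here mark the bases that pair with the seed. The first probe named for each is its longest.
miR-133b-3p probe: tagctggttgaaggGGACC
miR-206-3p probe: ccacacacttccttAC
miR-1a-1-5p probe: tatgggcatataaagAAGTATG

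The longest miR-133b-3p probe has 19 bases and covers bases 4 to 22 of the miRNA, 5 of them in the seed. The longest miR-206-3p probe has 16 bases and covers bases 7 to 22, with 2 in the seed, so it reads mostly the part outside the seed that miR-206 shares with miR-1. The longest miR-1a-1-5p probe has 22 bases and covers the whole seed. In the files' mapping (mm9), the longest miR-206-3p probe lies at chr1:20669143-20669157 and the longest miR-133b-3p probe at chr1:20672919-20672936, spans that the files give 1 base shorter than the probes, and the brightest probes of the pair are 3.76 kb apart. In the RefSeq table both hairpins lie within the long noncoding RNA gene Lincmd1. The longest miR-1a-3p probe maps to chr2:180123802-180123822 and the longest miR-133a-3p probe to chr2:180133146-180133163, 9.32 kb apart. Their hairpins there lie within the long noncoding RNA gene Mir1a-1hg. The files also map these probes to a further copy on another chromosome, and the arrays cannot tell the copies apart.

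Of the 7 members, 4 were well above background on all 6 arrays: miR-1a-3p, miR-133a-3p, miR-133a-5p and miR-133b-3p. The other 3, miR-1a-1-5p, miR-1a-2-5p and miR-206-3p, did not reach this on any of the 6 arrays with any probe. The scanner software's own detection flag gave the same split. Levels below are log2 of the scaled, background-subtracted signal of the brightest probe of a miRNA. They can be compared between arrays for 1 probe, whereas a difference between probes also depends on how well each binds.

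miR-1a-3p, the main arm of miR-1, read 15.86, 15.93 and 15.99 on the control arrays (replicates 1, 2 and 3, the order used throughout). On the sunitinib arrays it read 15.99, 16.01 and 15.96. Control replicate 3 lay above sunitinib replicate 3, so the groups overlapped. miR-133b-3p read 15.24, 15.32 and 15.40 in control and 15.39, 15.43 and 15.33 in sunitinib, again overlapping. miR-133a-3p, the main arm of miR-133a, read 14.48, 14.49 and 14.65 in control and 14.65, 14.71 and 14.59 in sunitinib. Its control replicate 3 lay within the sunitinib range and the other control arrays below it. miR-133a-5p, the partner strand, read 10.57, 10.57 and 10.68 in control and 10.76, 10.68 and 10.76 in sunitinib. Sunitinib replicate 2 exceeded control replicate 3 by less than the second decimal, and miR-133a-5p was the 1 detected member of 4 whose groups did not overlap. Among all 237 tested miRNAs the groups did not overlap in 65, or 27.4%, and 43, or 18.1%, were higher in sunitinib, so 1 of 4 is near the background.

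**Figure D1:**
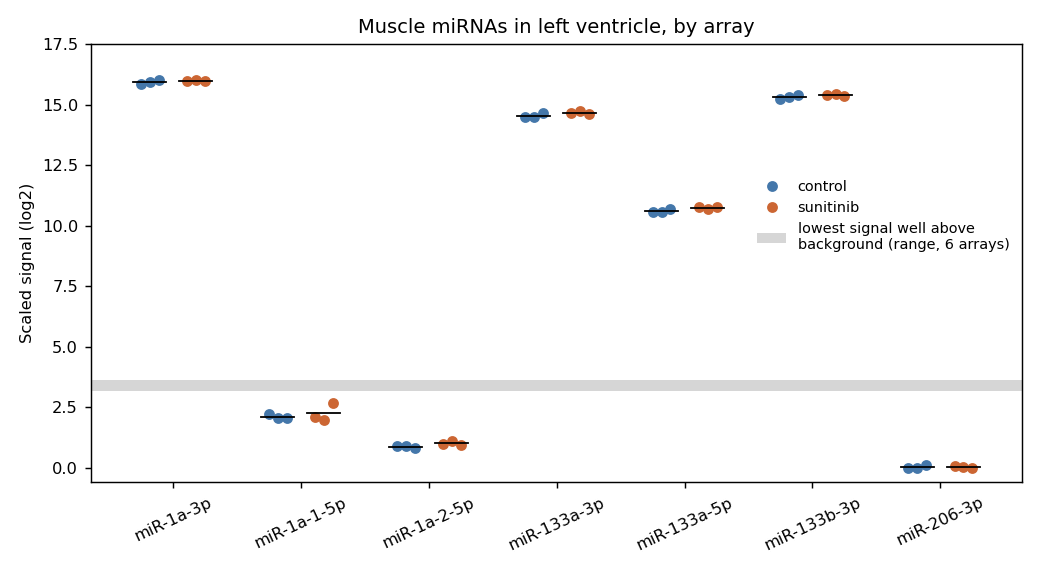
Scaled log2 signal of the brightest probe (vertical axis) of the 7 muscle miRNAs (horizontal axis) on 3 control and 3 sunitinib arrays. Each point is an array and each short line a group mean; the grey band spans the lowest signal well above background on the 6 arrays, from 3.18 to 3.62. miR-1a-3p, miR-133a-3p, miR-133b-3p and miR-133a-5p lie far above the band, and the other 3 below it, in both groups.

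The brightest 3 of the members stood at the top of the order of signal on every array. Among 1881 mouse miRNAs, miR-1a-3p ranked 2 on 5 arrays and 1 on sunitinib replicate 1, where it passed miR-6366, the miRNA that was brightest on the other 5. miR-133b-3p ranked 3 and miR-133a-3p ranked 4 on all 6 arrays, followed by miR-3963 at rank 5. The let-7 family member let-7f-5p, a miRNA of most differentiated tissues, came at rank 6. miR-133a-5p ranked 37, 37 and 36 in control and 35, 36 and 35 in sunitinib. These are ranks of signal, not of copy number, and they move with the way probes are summarised. The scanner software's summed signal over a miRNA's probes gave mean ranks for miR-133a-5p of 51.7 in control and 49.0 in sunitinib. With that sum, miR-133b-3p had mean ranks of 4 in control and 5 in sunitinib, and miR-133a-3p 5.67 and 6.33. miR-1a-3p stayed at 2 in each group. On the brightest probes, mean ranks were not told apart between groups by an exact two-sided permutation test. For miR-133a-5p they were 36.7 ± 0.58 and 35.3 ± 0.58 (SD, n = 3 each; exact permutation p = 0.2, adjusted over 4 members 0.8), where 3 against 3 samples allow no p below 0.1.

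**Figure D2:**
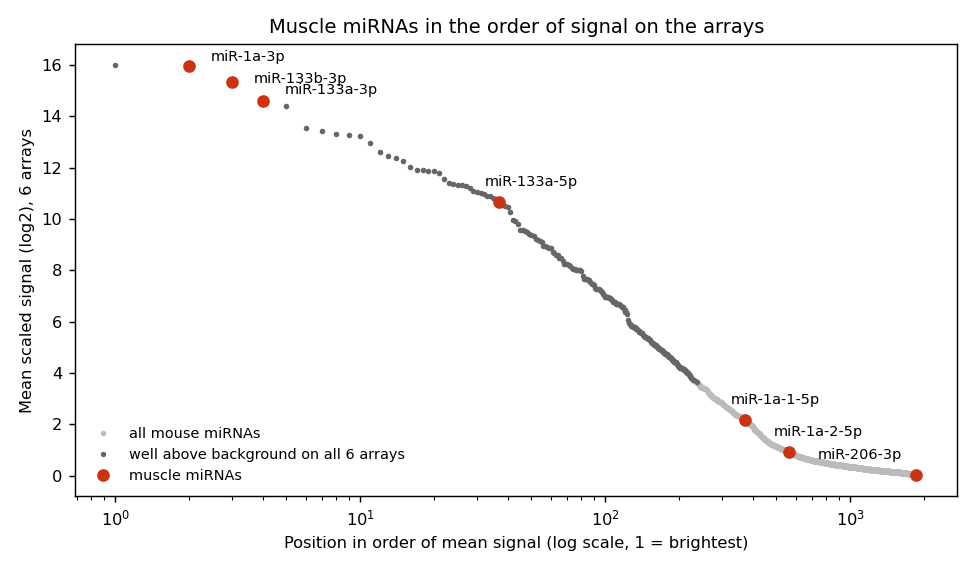
Mean scaled log2 signal over 6 arrays (vertical axis) of all 1881 mouse miRNAs against their position in the order of signal (horizontal axis, log scale). Dark grey points were well above background on all 6 arrays and red points are the 7 muscle miRNAs; miR-1a-3p, miR-133b-3p and miR-133a-3p hold positions 2, 3 and 4, whereas miR-206-3p lies at the far right with a mean near 0.

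As a share of the summed signal of all miRNAs well above background, the members held 32.7%, 33.1% and 33.5% on the control arrays and 34.3%, 33.8% and 33.2% on the sunitinib arrays. Control averaged 33.1% ± 0.40 and sunitinib 33.8% ± 0.53 (SD, n = 3 each; exact two-sided permutation p = 0.2, adjusted over 5 shares 0.5). miR-1a-3p alone held 16.1% ± 0.16 in control and 16.2% ± 0.23 in sunitinib. miR-133b-3p held 10.53% ± 0.18 and 10.69% ± 0.22, miR-133a-3p 6.13% ± 0.20 and 6.42% ± 0.16, and miR-133a-5p 0.401% ± 0.0073 and 0.425% ± 0.023. The shares of miR-133a-3p and miR-133b-3p are not independent where RNA of one binds the probes of the other, which was not tested. The members' share also depends on the probes summed. With the mean of all probes it was 26.3% in control and 26.5% in sunitinib, and with the scanner software's summed signal 24.7% and 24.9%. Under each of these summaries the groups' means lay within 1 percentage point of each other.

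The brightest spots had room above them: the highest raw spot signal of miR-1a-3p reached 10.1% of the scanner's saturation value, that of miR-133b-3p 6.48% and that of miR-133a-3p 3.85%, and no mouse miRNA spot was saturated.

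Sunitinib was compared with control in 1 limma fit over all 237 tested miRNAs, with Benjamini-Hochberg adjustment and a threshold of 0.05. None of the 4 detected members passed, against 8 of 237, or 3.38%, of all tested miRNAs, of which 4 (1.69%) were higher and 4 (1.69%) lower. At an unadjusted p under 0.05 there were also 0 of 4, against 45 of 237, or 19.0%. miR-1a-3p changed by 0.056 on the log2 scale (SE 0.062, limma adjusted p = 0.676), from 15.93 ± 0.065 to 15.99 ± 0.028 (SD, n = 3 each). Its 95% confidence interval, -0.094 to 0.21, corresponds to 0.937-fold to 1.15-fold. miR-133b-3p changed by 0.065 (SE 0.068, limma adjusted p = 0.646), with an interval from 0.934-fold to 1.17-fold. miR-133a-3p changed by 0.11 (SE 0.074, limma adjusted p = 0.460), with an interval from 0.955-fold to 1.22-fold. miR-133a-5p changed by 0.13 (SE 0.063, limma adjusted p = 0.331), with an interval from 0.981-fold to 1.21-fold. Every interval includes 1-fold, and the intervals together span 0.934-fold to 1.22-fold.

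The median within-group SD of the detected members was 0.060 on the log2 scale, against 0.11 over all tested miRNAs. Over the 32 other tested miRNAs whose mean signal lay within the range of the members it was 0.073, and the members' SDs, 0.050 to 0.079, fell within the 0.025 to 0.24 of those miRNAs. The median distance from the change to the end of its interval was 0.16 for the members and 0.22 over all tested miRNAs. The members' median change was 0.089, against 0.019 over all tested miRNAs. All 4 measured changes were above 0, as were 125 of 237, or 52.7%, of all tested. In the authors' deposited table, refitted in the same way, miR-1a-3p (-0.021) and miR-133a-3p (-0.0089) were below 0, and miR-1a-3p was also below 0 with the mean of all probes (-0.013). With quantile normalization miR-133a-3p and miR-133b-3p had a change of 0. The last follows from the method, since each held the same place in the order on every array.

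**Figure D3:**
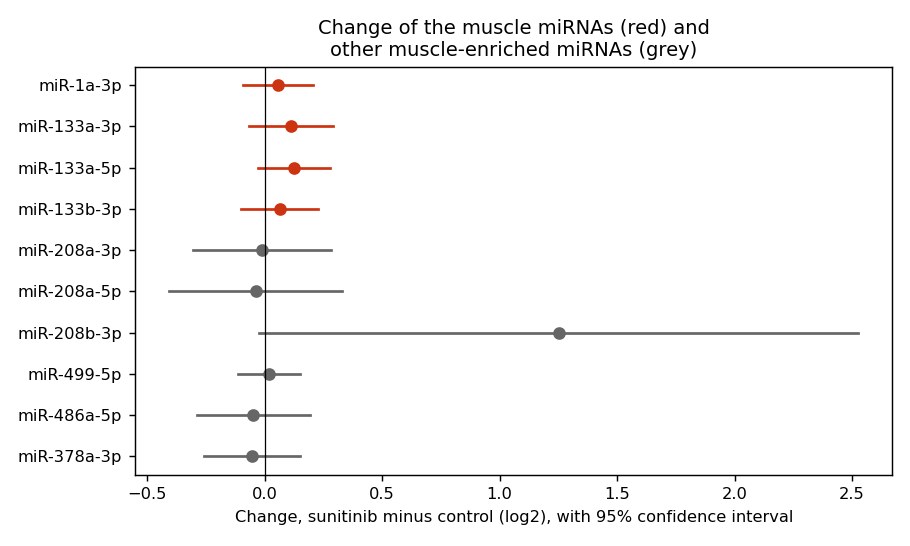
Log2 change, sunitinib minus control (horizontal axis), from the limma fit, with 95% confidence intervals as bars, for the 4 detected muscle miRNAs (red) and 6 other muscle-enriched miRNAs (grey). All intervals include 0; that of miR-208b-3p, from -0.022 to 2.53, is far wider than those of the red points.

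Each detected member had a second, shorter probe, and the probes did not agree in all cases. For miR-1a-3p the brightest probe, of 21 bases, changed by 0.056, whereas the second, of 20 bases, changed by -0.082. The second probe read 13.85, 13.78 and 13.90 in control and 13.80, 13.65 and 13.83 in sunitinib, with sunitinib replicate 2 lowest. On the brightest probe that same array was the highest. For miR-133a-3p the second probe changed by 0.018, with 12.01, 12.02 and 12.21 in control and 12.06, 12.14 and 12.09 in sunitinib. For miR-133a-5p it changed by 0.022, with 8.93, 8.85 and 8.91 in control and 8.99, 8.79 and 8.98 in sunitinib. The groups that did not overlap on the brightest probe of miR-133a-5p thus overlapped on the second. For miR-133b-3p the probes changed by 0.065 and 0.097, with 13.10, 13.11 and 13.25 on the second probe in control and 13.28, 13.29 and 13.18 in sunitinib. With the second probe of each in the fit no member passed, with limma adjusted p from 0.538 for miR-133b-3p to 0.888 for miR-133a-3p and miR-133a-5p. This comparison was added after the values were seen.

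**Figure D4:**
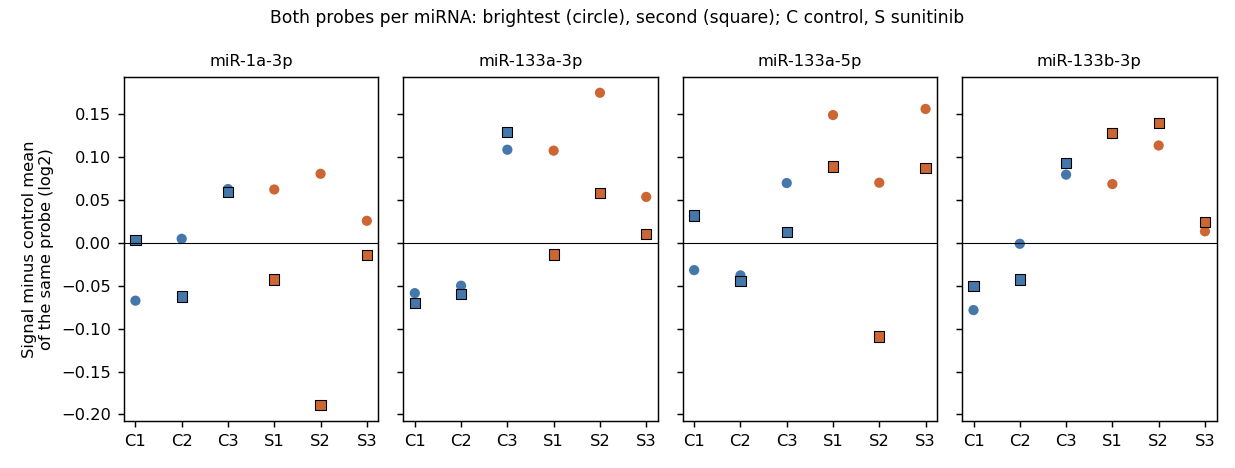
Signal of both probes of the 4 detected muscle miRNAs on each array, as the difference from the mean of the control arrays on the same probe (vertical axis, log2), for control (C1 to C3, blue) and sunitinib (S1 to S3, orange) arrays. Circles are the brightest probe and squares the second. On every sunitinib array the probes of miR-1a-3p lie on opposite sides of 0, farthest apart on S2. Those of miR-133b-3p lie on the same side of 0 on every array.

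Each probe of these members was printed 15 times on an array. The median SD between spots of 1 array was 0.092 for miR-1a-3p, 0.045 for miR-133a-3p, 0.079 for miR-133a-5p and 0.063 for miR-133b-3p on the brightest probe. The largest standard error of an array's mean from its spots was then 0.029 for miR-1a-3p, 0.019 for miR-133a-3p, 0.034 for miR-133a-5p and 0.026 for miR-133b-3p. The SD between control arrays, 0.065, 0.094, 0.060 and 0.079 in the same order, was larger than this spot error for each. Between sunitinib arrays it was 0.028, 0.061, 0.048 and 0.050, which for miR-1a-3p is below its largest spot error.

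On the brightest probes the 3p arms deviated together on an array, and miR-133a-5p less so. Its Pearson r with the 3p arms over 6 arrays was 0.555 to 0.684, as a description. Relative to the control mean of each, control replicate 1 lay lower for all 4 detected members (-0.078 to -0.032) and control replicate 3 higher for all 4 (0.063 to 0.11), and the sunitinib arrays lay between 0.013 and 0.18. Control replicate 2 ran from -0.050 to 0.0047, with mixed signs. Among the sunitinib arrays the 3p arms were highest on replicate 2 and lowest on replicate 3, whereas miR-133a-5p was lowest on replicate 2 and highest on replicate 3. Control replicate 3 thus stood within the range of the sunitinib arrays for miR-1a-3p, miR-133a-3p and miR-133b-3p. On the second probes the 3p arms did not all move together. Sunitinib replicate 2 was there the lowest sunitinib array for miR-1a-3p (13.65). It was the highest for miR-133a-3p (12.14) and miR-133b-3p (13.29). All 6 arrays lay on 1 slide, where sunitinib replicates 1 and 2 occupied a row of their own and sunitinib replicate 3 shared a row with all 3 control arrays. Within the shared row the change was 0.026 for miR-1a-3p, 0.013 for miR-133b-3p, 0.054 for miR-133a-3p and 0.16 for miR-133a-5p. With the row as a block no member passed, with limma adjusted p from 0.755 to 0.973.

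Whether one member changed more than another was asked within arrays, where scaling between arrays cancels. Over all 6 pairs of detected members, differences in log2 change ran from -0.069 (miR-1a-3p minus miR-133a-5p) to 0.060 (miR-133a-5p minus miR-133b-3p). None passed an exact two-sided permutation test adjusted over the 6 pairs (lowest adjusted p = 0.6). The lowest raw p, 0.1, the smallest that 3 against 3 samples allow, belonged to miR-133a-3p minus miR-133b-3p. Its difference was 0.047, and the ratio was higher on every sunitinib array than on every control array. That difference was -0.016 with the mean of all probes, -0.042 in the authors' deposited table and -0.079 with the second probes, so its direction depends on the probe. For the arms of the miR-133a hairpin, 3p minus 5p, the difference was -0.013 (exact two-sided permutation p = 0.8).

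miR-206-3p, the skeletal muscle relative of miR-1, was at the bottom of the scale. Its brightest probe read 0, 0 and 0.12 in control and 0.052, 0.039 and 0 in sunitinib, where 0 is the floor set for signals of 1 or less. Of 176 spot readings on its pair of probes, 172, or 97.7%, were at the floor and 0 were well above background. Its partner strand miR-206-5p was well above background on 0 of 6 arrays as well. On the same arrays miR-133b-3p, from the same host transcript, ranked 3. Because miR-133a-3p and miR-133b-3p are nearly identical, RNA of one can bind the probes of the other. How much of the miR-133b-3p signal comes from miR-133a was not tested. miR-133b-5p, the partner strand of miR-133b, was well above background on 0 of 6 arrays, with a mean of 0.089 ± 0.074 for control and 0.17 ± 0.17 for sunitinib (SD, n = 3 each). The miR-206-3p probes, which cover 1 and 2 bases of the seed, stayed at the floor. miR-1a-3p, with the same seed, was among the brightest miRNAs. Whether its RNA binds the miR-206-3p probes was not tested.

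The 5p arms of miR-1 were also not well above background on any array. The lowest signal of a probe well above background was 3.18 to 3.62 over the arrays, and both arms read below it. miR-1a-1-5p read 2.21, 2.03 and 2.05 in control and 2.09, 1.97 and 2.65 in sunitinib on its 22-base probe. Sunitinib replicate 3 was highest and sunitinib replicate 2 lowest, so the groups overlapped. Its probes of 20 and 21 bases had means from 0.62 to 0.96, with 26 spot readings each at the floor, and no spot of any of the 3 probes was well above background. miR-1a-2-5p read 0.87, 0.90 and 0.82 in control and 0.99, 1.09 and 0.92 in sunitinib. Its groups did not overlap, but 81 of its 177 spot readings were at the floor and 0 were well above background, so no fold is given. Further relatives by name, miR-1b-3p, miR-1b-5p and miR-133c, cleared the background limit on 0 of 6 arrays.

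The tissue label was set against lists of marker miRNAs. Of 8 other muscle-enriched miRNAs on the arrays, 6 were well above background on all arrays and tested, and 0 passed in either direction, with a median change of -0.023. miR-499-5p, encoded in the slow myosin gene Myh7b, had a change of 0.018 (SE 0.055), and miR-208a-3p, encoded in the cardiac myosin gene Myh6, -0.010 (SE 0.12). miR-378a-3p, encoded in the metabolic regulator gene Ppargc1b, had -0.053 (SE 0.085) and miR-486a-5p, encoded in the ankyrin gene Ank1, -0.047 (SE 0.099). miR-208a-5p had -0.037 (SE 0.15). miR-208b-3p, encoded in Myh7, read 4.88, 5.71 and 4.49 in control and 7.05, 5.22 and 6.57 in sunitinib. Its change of 1.25 (SE 0.53, limma adjusted p = 0.263) had an interval far wider than that of any detected member. The partner strands miR-208b-5p and miR-499-3p were well above background on 0 of 6 arrays. So were the liver marker miR-122-5p and the neuronal markers miR-124-3p and miR-9-5p.

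Markers of other cell types in ventricle were detected, so the signal of the muscle miRNAs is that of a mixed tissue, in which fewer cells of a type and less RNA per cell cannot be told apart. Endothelial, smooth muscle, erythroid and stromal markers, 9 in all, were well above background on all arrays, and 0 passed. Of the smooth muscle pair, miR-143-3p had a change of -0.066 and miR-145a-5p -0.23 (limma adjusted p = 0.211). Among endothelial markers the change was -0.019 for miR-126a-3p and -0.18 for miR-126a-5p, and the erythroid miR-451a had 0.19 and miR-144-3p -0.10. The stromal miR-214-3p, miR-199a-3p and miR-199a-5p had -0.084, -0.084 and -0.071. Of 4 leukocyte markers 3 were tested and 2 fell, miR-223-3p with a change of -1.32 and miR-142a-3p with -0.64 on the log2 scale (limma adjusted p = 0.00086 and 0.020). After blocking on the slide row miR-223-3p kept its call (limma adjusted p = 0.020) and miR-142a-3p lost it (0.246; 0.0053 to 0.246 over the alternatives). miR-142a-3p also lost it without control replicate 1 (0.102), 2 (0.0874) or 3 (0.0894). miR-150-5p had 0.35. The log2 of the summed linear signal of the 4 leukocyte markers ran from 9.08 to 9.24 in control and from 8.30 to 8.62 in sunitinib. The brightest of them, miR-223-3p, alone read 8.22 to 8.47 in control and 6.91 to 7.04 in sunitinib. The sum includes miR-142a-5p, which was not well above background on any array. The part of leukocyte signal in the values of the muscle miRNAs was not tested.

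Likeness of the scaled signal of the brightest probes over the 6 arrays is given as a description. The arrays are shared, so any array-wide shift enters each correlation. On these probes the 3p arms resembled each other. Pearson r was 0.986 between miR-1a-3p and miR-133b-3p, 0.935 between miR-133a-3p and miR-133b-3p and 0.912 between miR-1a-3p and miR-133a-3p. The likeness depends on the probe, and miR-133a-3p and miR-133b-3p may share signal, since RNA of one can bind the probes of the other. On the second probes sunitinib replicate 2 was the lowest array for miR-1a-3p (13.65) but the highest for miR-133b-3p (13.29). With members left out of the search, the nearest miRNAs to miR-1a-3p were miR-107-3p, miR-486b-3p and miR-29c-3p (Pearson r from 0.881 to 0.889 over 6 arrays). For miR-133a-3p they were miR-466h-3p, miR-107-3p and miR-486b-3p (0.920 to 0.960), and for miR-133b-3p miR-486a-3p, miR-107-3p and miR-486b-3p (0.907 to 0.915). miR-133a-5p stood nearest to miR-99a-5p, miR-185-5p and miR-30a-3p (0.891 to 0.907), none of which was among the nearest of the 3p arms.

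**Figure D5:**
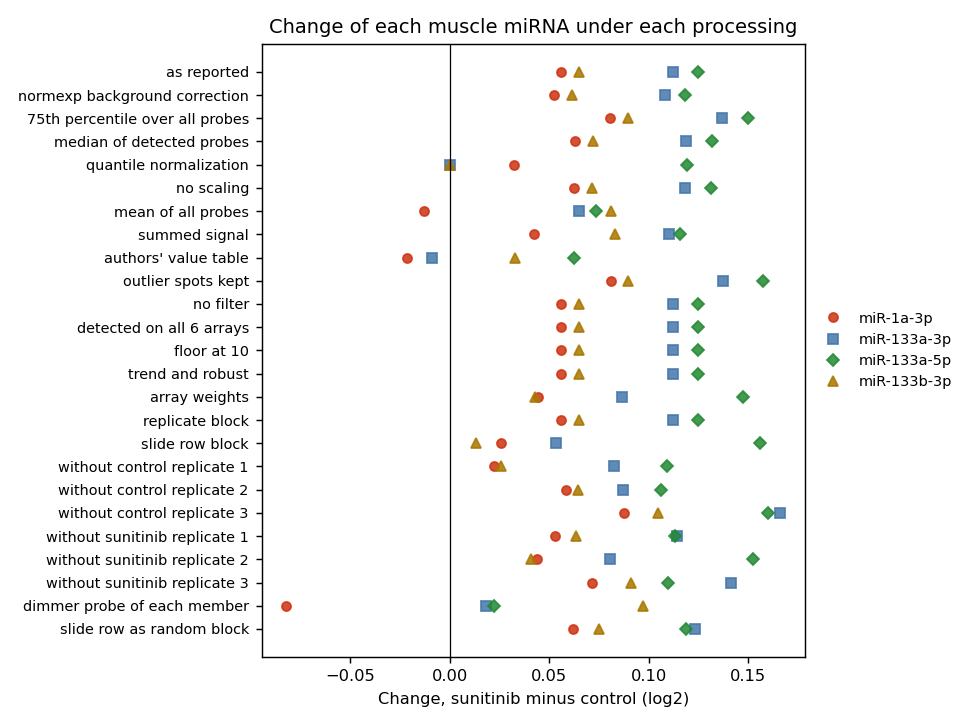
Log2 change, sunitinib minus control (horizontal axis), of the 4 detected muscle miRNAs as reported and under 24 other ways of processing (vertical axis). All values lie between -0.082 and 0.17, and those for the alternative filters, floor, variance model and replicate block equal the reported ones. miR-133a-5p stays above 0 throughout. miR-1a-3p falls below 0 with the mean of all probes, in the authors' value table and with its dimmer probe.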

How the data were processed

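The authors deposited 1 scanner file per array with each spot's linear intensity, background-subtracted by Agilent Feature Extraction, version 10.7 per the submitters' processing notes and 10.7.1.1 per the file headers, with genome build mm9. They also deposited a table of log2 values per miRNA. Its column medians ran from 2.195 to 2.200, and each column's deviations from the mean of the arrays correlated with those of that array's scanner signal (Pearson r over miRNAs 0.919 to 0.954). How it was scaled and centred is unknown, and it served as an alternative.

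Control spots and spots flagged as outliers were left out. Arrays were scaled (factors 0.861 to 1.12) to a common 75th percentile, taken over 393 probes that cleared background on all 6. Values under 1 were then set to 1, and each probe's replicate spots were averaged as log2. A probe counted as well above background with 50% or more of its spots so marked. The brightest probe stood for its miRNA. Testing required a miRNA to clear background on every array of either group, reapplied when a sample was left out. The 4 detected members were so on all 6 arrays, and the other 3 did not pass this filter.

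The comparison of sunitinib with control used limma 3.58.1 in R 4.3.3, and the fit was tested on simulated data. Between 2 arrays, the SD of log2 differences was 0.177 to 0.410 within groups and 0.326 to 0.477 between groups, so no 2 arrays held the same values. These SDs cannot show whether 2 arrays came from 1 animal. The number of arrays limits the precision.

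The members and lists were chosen with earlier results of these data known. Named were all members, the muscle and other cell markers listed, the 5 brightest miRNAs, the nearest neighbours and, after their values were seen, let-7f-5p and 4 relatives by name. miR-486b-5p was not analysed here. Alternatives changed the background correction, the scaling, the floor, the filter, the probe summary, the variance model, the weights or the blocks, or left out each sample in turn.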

Additional observations from a re-analysis of the deposited data

How the results depend on the processing

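No detected member passed the threshold as reported or in any of 24 alternatives (lowest limma adjusted p = 0.161, for miR-133a-5p with quantile normalization). The alternative filters, floor, variance model and replicate block left each member's change exactly as reported. They add nothing to the counts of signs that follow. The change of miR-133a-5p was above 0 in all 24 and that of miR-133b-3p in 23, with 0 under quantile normalization. That of miR-133a-3p was above 0 in 22, 0 under quantile normalization and -0.0089 in the authors' value table. That of miR-1a-3p was above 0 in 21 and -0.013 with the mean of all probes, -0.021 in the value table and -0.082 with its dimmer probe. The dimmer probe, the row as a random block and the software's detection flag were added after the data were seen. Leaving out a sample gave 0.022 to 0.087 for miR-1a-3p, 0.081 to 0.17 for miR-133a-3p, 0.11 to 0.16 for miR-133a-5p and 0.026 to 0.10 for miR-133b-3p.

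Over all miRNAs, the 4 higher and 4 lower became 2 and 2 with normexp, 1 higher without scaling, 7 higher and 2 lower with the summed signal, and 0 higher with quantile normalization or without a filter. They became 7 lower with the mean of all probes or array weights, 7 higher with the row as a random block, and 0 and 1 with the row as a block. Without a sample they were 0 to 5 and 2 to 3. The leukocyte marker miR-142a-3p lost its call with the row or the replicate number as a block, with the percentile over all probes, without scaling, with outlier spots kept, without a filter and without any 1 control sample, whereas miR-223-3p kept its call in every alternative, as examined after the data were seen. The replicate block gave 0 and 2, and limma adjusted p from 0.396 to 0.742 for the members. Same-numbered samples deviated together with correlations of 0.18, 0.22 and -0.055, and only replicate 2 matched its own number best, so the numbers were not taken as pairs.

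Among pairs, miR-1a-3p minus miR-133a-3p was 0.032 with quantile normalization, as was miR-1a-3p minus miR-133b-3p (-0.020 to 0.0030 without a sample). miR-133a-3p minus miR-133a-5p ran from -0.072 to 0.032 without a sample. miR-133a-3p minus miR-133b-3p was -0.016 with the mean of all probes, -0.042 in the value table and -0.079 with dimmer probes, and miR-133a-5p minus miR-133b-3p -0.0075 for averaged probes and -0.075 for dimmer probes. No pair passed in any alternative, which 3 against 3 samples cannot do.

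Mean ranks of miR-133a-3p became 5 in each group with the mean of all probes and in the value table, and 5.67 in control and 6.33 in sunitinib with the summed signal. Those of miR-133b-3p became 4 and 5 with the summed signal, and those of miR-133a-5p 37.7 and 36.3 for averaged probes, 51.7 and 49.0 for the summed signal, and 36.3 in sunitinib in the value table. The members' share of signal was 32.02% and 32.6% with normexp, 26.3% and 26.5% for averaged probes, and 24.7% and 24.9% for the software's sum. The cause of these shifts was not tested. The 3 undetected members were not well above background on any array, so these arrays cannot show a change in them.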
